A study of Mus musculus with 123 samples.

Results

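The 8 genes described here encode channels and an exchanger of the cardiac cell membrane, read in single cells of the developing mouse heart. They were chosen by name and comprised the sodium-calcium exchanger gene Slc8a1, the L-type calcium channel genes Cacna1c and Cacna1d, the pacemaker channel gene Hcn4, the inward rectifier genes Kcnj2, Kcnj3 and Kcnj5, and the delayed rectifier gene Kcnq1. They are 8 of the 23337 genes in the files, and all 8 had a row. Counts were available for 123 cells, of which 112 had 2000 or more genes at 1 count or more and were kept. The study's methods name the same minimum, but genes were counted here on the deposited count table, and fewer cells were kept here than the study describes, mainly at P1.

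All cells came from hearts of the aMHC-GFP strain, in which the promoter of αMHC (the cardiac alpha myosin heavy chain, Myh6) drives green fluorescent protein, were labelled αMHC+, and were sorted and captured on a Fluidigm C1 chip for SMART-Seq V4 cDNA. The groups were 42 kept cells labelled E9.5 and 29 labelled E12.5, both embryonic days, and 41 labelled P1, the first day after birth. The labels name no other allele or treatment and give the tissue only as heart, with no region. Hearts were digested in a collagenase solution at both embryonic days and in a Liberase mixture at P1, so digestion and age cannot be told apart. The labels name no animal, litter or chip, so each time point was treated as 1 sample, values are given with counting intervals, and no test between time points was made.

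The beating of a heart muscle cell begins with inward current through sodium and calcium channels and ends with outward current through potassium channels, and each cell class owes its rhythm to its own mix of them. Pacemaker cells of the sinus node are known for the hyperpolarization-activated channel Hcn4, for the calcium channel Cav1.3 encoded by Cacna1d, which opens at low voltage, and for the acetylcholine-gated potassium channel built from the products of Kcnj3 and Kcnj5, which slows the heart beat under vagal tone. Working muscle relies on the calcium channel Cav1.2 (Cacna1c) for contraction, on the strong inward rectifier Kir2.1 (Kcnj2) for a stable resting potential and on Kcnq1 for repolarization, and the exchanger encoded by Slc8a1 removes calcium from all heart muscle cells. Following these textbook roles, Hcn4, Cacna1d, Kcnj3 and Kcnj5 are called pacemaker-type here and Slc8a1, Cacna1c, Kcnj2 and Kcnq1 working-muscle genes. Slc8a1 and Kcnq1 are known from nodal cells too, and Kcnj3 and Kcnj5 from atrial muscle.

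Levels are CPM, a cell's counts of a gene scaled to a total of 1000000, and the level of a time point is the mean of its cells' CPM. Total counts per cell ranged from 268301 to 6351742 on E9.5, between 148258 and 7711355 on E12.5 and between 69522 and 327360 in P1 cells, so that 1 count was worth 6.71 CPM in a median P1 cell and 0.404 CPM in a median E9.5 cell. Cell titles fell into naming sets, which were kept apart: set C (14 cells at E9.5, 20 at E12.5 and all 41 at P1), set N530 at E9.5 (28 cells), set N523 at E12.5 (8 cells) and 1 further E12.5 cell. What the names stand for is not stated in the sources used here. The N sets were the deeper ones, with median totals of 3151950 and 4895290 counts against 415428 and 389394 in set C of the same days. The 8 cardiomyocyte markers (Myh6, Myh7, Tnnt2, Actc1, Ttn, Ryr2, Nkx2-5 and Tnnc1) were all found at each time point, and their sum was under 5000 CPM in 4 cells of E9.5 and 1 of P1. All 6 fibroblast and all 6 erythroid markers with a row were at 0 at P1, whereas at E9.5 the summed fibroblast markers reached 4007 CPM in a single cell. The P1 cell with few cardiomyocyte markers held 7507 CPM of endothelial markers. In these 5 cells, which served as a background, Slc8a1 and Cacna1d were each found in 1, the same cell, and the other 6 genes in none, at median totals of 423326 (E9.5) and 205668 (P1) counts.

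The genes lie on 7 chromosomes of the GRCm38 build (GENCODE annotation). Slc8a1 is on the minus strand at chr17:81373105-81738377, Cacna1c on the minus strand at chr6:118587240-119196418 and Cacna1d on the minus strand at chr14:30039939-30491455. Hcn4 lies on the plus strand at chr9:58823412-58863175 and Kcnj5 on the minus strand of the same chromosome at chr9:32314707-32344350. Kcnj2 is a compact gene of 2 exons on the plus strand at chr11:111066164-111076821, Kcnj3 lies on the plus strand at chr2:55435970-55598145 and Kcnq1 on the plus strand at chr7:143106362-143427042. The antisense RNA Kcnq1ot1 lies within Kcnq1 on the other strand, at chr7:143203458-143296549, and shares 121 exon bases with it, or 2.96% of the exon bases of Kcnq1. Chdh shares 589 exon bases with Cacna1d on the other strand, and Gm26794, which has no row in the files, covers 31.1% of the exon bases of Kcnj3. SMART-Seq libraries do not mark strand, so reads in these shared stretches cannot be told apart. Hcn4, Kcnj2, Kcnj5 and Cacna1c share no exon base with another annotated gene.

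RefSeq promoter windows (GRCm38.p6, 250 bases before to 50 after the start of transcription) were held for 7 of the 8 genes, and 3 are printed because these genes mark the 3 patterns described next: Slc8a1 was found in nearly every heart muscle cell, Hcn4 in a few embryonic cells, and Kcnj2 mainly after birth. The windows were searched on both strands for letters known from factor binding, namely AGATAA for GATA factors, GGTGTG for T-box factors, TNAAGTG for NK2 factors, CATTCC for TEAD factors, TATAAA for the TATA box and GGGCGG for the GC box, and capitals mark the matches in lines read 5′ to 3′ along the gene's strand. Slc8a1 is at chr17:81738338-81738637 (minus), Hcn4 at chr9:58822699-58822998 (plus, ending before the annotated gene start given above) and Kcnj2 at chr11:111065914-111066213 (plus).
Slc8a1: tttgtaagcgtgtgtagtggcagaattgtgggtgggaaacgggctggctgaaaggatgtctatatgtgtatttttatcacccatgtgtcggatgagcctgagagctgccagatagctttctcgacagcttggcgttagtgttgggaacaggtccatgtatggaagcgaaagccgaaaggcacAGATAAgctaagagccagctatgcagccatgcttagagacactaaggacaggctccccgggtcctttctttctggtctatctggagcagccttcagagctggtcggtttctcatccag
Hcn4: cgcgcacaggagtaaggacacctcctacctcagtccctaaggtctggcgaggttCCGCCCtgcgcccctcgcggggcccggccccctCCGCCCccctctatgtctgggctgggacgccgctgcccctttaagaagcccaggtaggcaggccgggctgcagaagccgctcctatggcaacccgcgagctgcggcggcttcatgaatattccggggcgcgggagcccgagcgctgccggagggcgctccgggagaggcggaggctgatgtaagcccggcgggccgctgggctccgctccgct
Kcnj2: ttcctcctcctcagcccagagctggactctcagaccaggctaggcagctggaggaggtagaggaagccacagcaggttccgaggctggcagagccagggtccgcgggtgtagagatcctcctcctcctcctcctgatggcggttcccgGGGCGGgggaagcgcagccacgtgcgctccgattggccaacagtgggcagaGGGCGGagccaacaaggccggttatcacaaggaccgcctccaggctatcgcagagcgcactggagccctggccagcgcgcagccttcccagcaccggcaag
The Slc8a1 window held 1 match, AGATAA from base -68, a motif present in 11.2% of the 32851 windows of this length. The windows of Hcn4 and Kcnj2 each held 2 GC boxes, which 35.7% of all windows hold, and none of the other letters searched. Their GC content was 71.7% and 66.7%, against 50.7% for Slc8a1 and a median of 52.7% over all windows. No window printed held the T-box, NK2, TEAD or TATA letters, and a match here is a string of letters, not a measured site.

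**Figure D1:**
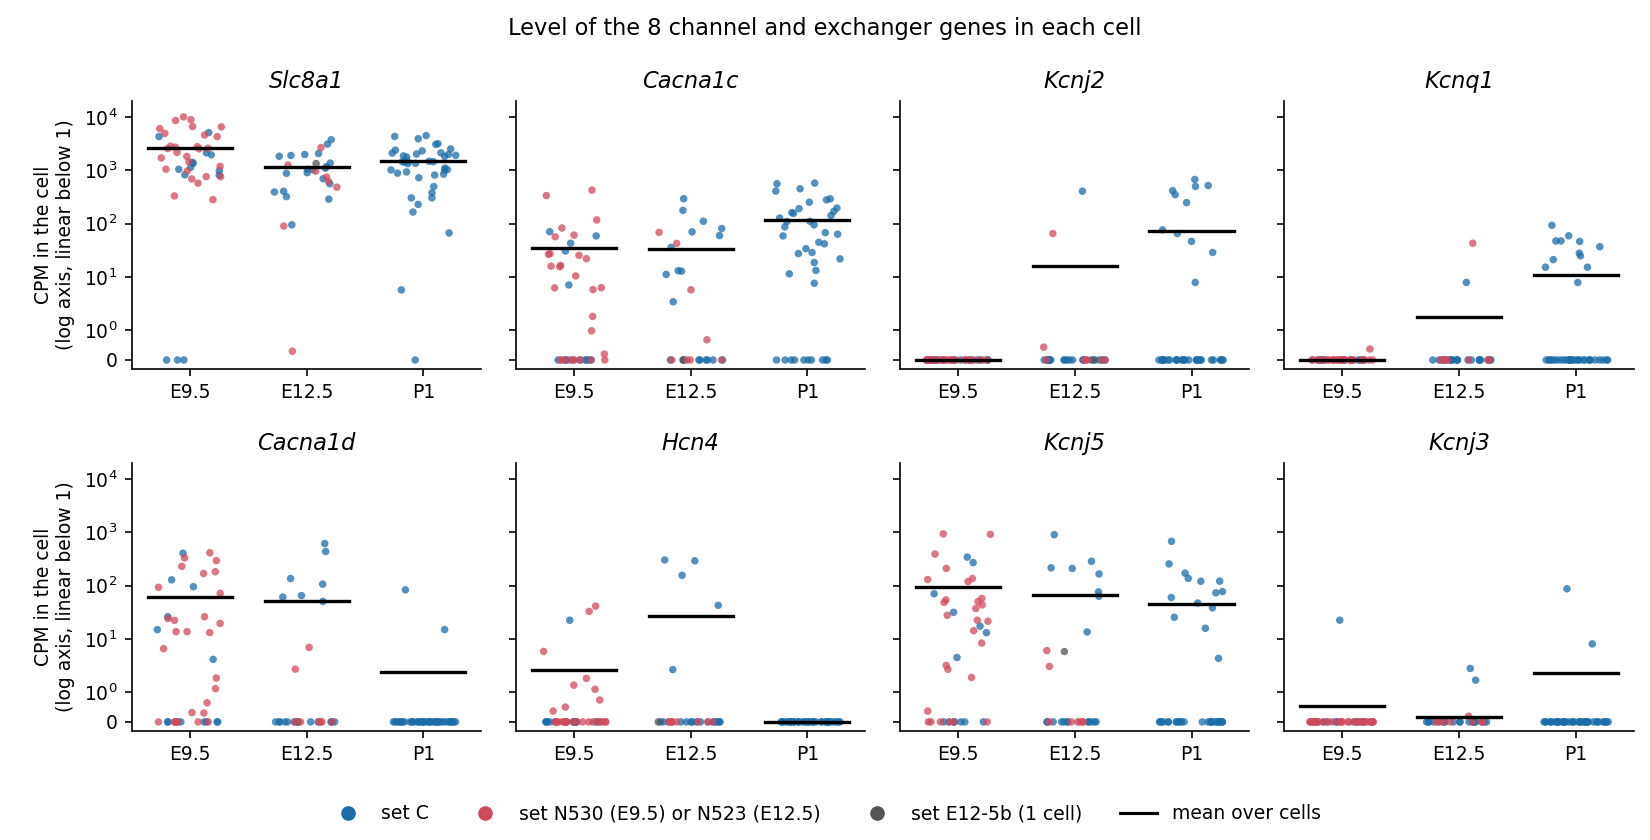
Level of each gene in each kept cell of the 3 time points; the vertical axis is CPM on a log axis that is linear below 1, points are cells coloured by naming set, and the black line is the mean over cells. Slc8a1 lies between 281 and 9995 CPM in nearly all E9.5 cells, Kcnj2 is at 0 in all 42 E9.5 cells, and Hcn4 is at 0 in all 41 P1 cells.

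Slc8a1, whose product exports calcium in exchange for sodium, was the most abundant of the 8 genes at every time point. It was found (1 count or more) in 39 of 42 E9.5 cells, in all 29 E12.5 cells and in 40 of 41 P1 cells. Its CPM ran from 0 through a median of 1760 to 9995 on the first day, from 0.297 through 956 to 3732 on the second and from 0 through 1426 to 4452 after birth. The ranges overlapped, though 9 E9.5 cells lay above every E12.5 and every P1 cell. E9.5 cells averaged 2638 CPM, E12.5 cells 1135 CPM and P1 cells 1507 CPM.

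Slc8a1 was 2.32-fold lower at E12.5 than at E9.5 (log2 ratio -1.22), and each of the 4 combinations of naming sets gave a lower level, from -0.27 within set C to -1.92 between the N sets, so within set C alone it was not 2-fold and the call was lost. A gene is called here when its level differs 2-fold or more and in the same direction in every combination of naming sets of 6 or more cells. By this rule 17.7% of 12159 genes found in 3 or more kept cells were lower at E12.5, so that 1 member in 8 is no more than the background. Between P1 and E9.5 the log2 ratio was -0.81 and was not called, since within set C it was 0.01. Over all genes the median log2 ratios of these comparisons were -0.24 and -0.67. The 4 kept cells without a Slc8a1 count, 3 at E9.5 and 1 at P1, were all among the 5 cells with cardiomyocyte markers under 5000 CPM, and none of the 8 genes was found in those 4. Every cell above that marker level held Slc8a1.

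Cacna1c, the pore of the main L-type channel of working muscle, was higher at P1 than at either embryonic day. Counts were present in 25 of 42 E9.5 cells (59.5%, exact 95% binomial interval 43.3 to 74.4), in 15 of the 29 E12.5 cells (51.7%, 32.5 to 70.6) and in 31 of the 41 P1 cells (75.6%, 59.7 to 87.6). The E9.5 cells were 5 of 14 in set C (35.7%) and 20 of 28 in the deeper set N530 (71.4%). After thinning every cell to 60000 counts, a way to compare shares at 1 depth, the expected shares were 39.6%, 37.9% and 70.5%. Its median and highest CPM were 6.02 and 424 in E9.5 cells, 0.681 and 292 in E12.5 cells, and 58.8 and 574 in P1 cells, and the lowest was 0 on each day. Cells at 0 and cells above 200 CPM occurred at each time point, so the ranges overlapped. E9.5 cells averaged 34.95 CPM and E12.5 cells 33.9 CPM, while P1 cells averaged 117 CPM, which is 3.34-fold above E9.5 (log2 ratio 1.74, naming sets 1.38 to 2.96) and 3.44-fold above E12.5 (1.78, naming sets 1.43 to 2.99). Cacna1c was called in both comparisons, though not when 4-fold was required.

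Cacna1d, the low-voltage relative of Cacna1c, went the other way. On E9.5 it was found in 27 of 42 cells (64.3%), on E12.5 in 9 of 29 (31.03%), and after birth in 2 of 41 (4.88%, interval 0.596 to 16.5), and the thinned shares were 42.6%, 25.6% and 3.99%. The highest E9.5 cell held 411 CPM and the median cell 5.34 CPM, and for E12.5 these were 611 and 0 CPM. At P1 the 2 cells that held it were at 14.9 and 82.9 CPM, and all others were at 0. Mean levels were 61.6 CPM in E9.5 cells, 50.7 CPM in E12.5 cells and 2.39 CPM in P1 cells. Without the highest cell they were 53.1, 30.7 and 0.374 CPM. Without cells whose titles end in "no" the log2 ratio of E12.5 to E9.5 was -2.11, against -0.28 with all cells. That of P1 to E12.5 was then -2.50. P1 was 25.8-fold below E9.5 (log2 ratio -4.69, naming sets -4.84 to -4.33) and Cacna1d was called lower. Against E12.5 the ratio was -4.41 with all cells, but the naming sets disagreed, with -4.94 against set C and 0.99 against set N523, and the gene was not called.

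Both L-type pores were often present in the same embryonic cell. At E9.5, 17 cells held Cacna1c and Cacna1d, 10 Cacna1d alone and 8 Cacna1c alone, and at E12.5 7 of the 9 Cacna1d cells also held Cacna1c. At P1 29 cells held Cacna1c alone and both Cacna1d cells held Cacna1c too. Per transcript length, as the deposited TPM give it, the mean Cacna1d level (15.1 TPM) stood above that of Cacna1c (9.14 TPM) at E9.5, while at P1 Cacna1c (21.1 TPM) stood above Cacna1d (0.421 TPM).

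Hcn4, which carries the pacemaker current, was found only before birth. It had counts in 10 of 42 E9.5 cells (23.8%, interval 12.1 to 39.5), which were 1 of 14 cells in set C and 9 of 28 in the deeper set N530, and in 5 of 29 E12.5 cells (17.2%, 5.85 to 35.8). At P1 it was found in 0 of 41 cells, which allows a share of up to 7.32% of cells with a count by the limit of 3 counts used here for a 0 (the exact interval reaches 8.60%). The shares after thinning were 7.63%, 14.1% and 0%. Among the E9.5 cells that held it the CPM ran from 0.365 through a median of 1.59 to 41.1. The 5 E12.5 cells held 301, 290, 155, 42.5 and 2.66 CPM, so 4 of the 5 were above every E9.5 cell. The E9.5 cells with the most were at 41.1, 32.8 and 22.4 CPM. E9.5 cells averaged 2.57 CPM and E12.5 cells 27.3 CPM, or 1.63 and 17.5 CPM without the highest cell. Of the 5 E12.5 cells 3, including the highest 2, have titles that end in "no", and without such cells the E12.5 share was 2 of 20 and the log2 ratio to E9.5 was 1.91.

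All 5 Hcn4 cells of E12.5 were in set C, where they made up 5 of 20 cells, and set N523 had 0 of 8, which allows a share of up to 37.5% by the limit of 3 (exact interval to 36.9%). The E12.5 to E9.5 log2 ratio was 3.41 with all cells and 4.63 within set C, but between the N sets it was -4.59 or lower, and Hcn4 was not called. For such bounds a 0 was set to the highest mean that 3 counts could give, all in the cell of the lowest total. P1 was at least 2.44-fold lower than E9.5 with all cells but at least 1.52-fold within set C, where E9.5 had 6 counts in 1 cell, and Hcn4 was called lower in this comparison, a call that was lost without its highest cell. Against E12.5 the P1 level was at least 25.9-fold lower, without a call because Hcn4 was at 0 in set N523 as well.

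Hcn4 cells of E9.5 also held Cacna1d in 10 of 10 cases, against 27 of 42 for all E9.5 cells, and held Kcnj5 in 7. Tbx3, a repressor of the working-muscle programme in the node, was present in 8 of these 10 and in 18 of the other 32 E9.5 cells, and Myl2, the ventricular light chain, in 9 of the 10 and in 28 of the others. The sinus node factors Shox2, Tbx18 and Isl1 were present in 1, 3 and 2 of the 10. Of these cells, 9 were of the deeper set N530, and the 1 of set C held Shox2, Tbx18 and Isl1 but neither Tbx3 nor Myl2. The 5 E12.5 cells with Hcn4 were all of set C. The days were not compared by a test in these genes.

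Among E12.5 cells, Tbx3 was found in all 5 with Hcn4 and in 4 of the other 24 cells. Shox2 was found in 4 of the 5 and in none of the other 24, Tbx18 in 4 of the 5 and in 10 of the others, and Isl1 in 1 of the 5 and 1 of the others. Myl2 was at 0 in 4 of the 5, against 2 of the others. The 3 cells with the most Hcn4 also held Cacna1d, at 135, 434 and 60.7 CPM, and Kcnj5, at 898, 75.9 and 13.5 CPM, in the order of falling Hcn4. Their Slc8a1 level was 3732, 2058 and 3089 CPM, in the upper part of the E12.5 range. None of the 5 held Kcnj2 or Kcnq1, and Cacna1c was found in 2 of them, at 80.9 and 13.1 CPM. Over all 29 E12.5 cells, however, Kcnj2 was found in only 3 and Kcnq1 in only 2, and Cacna1c in 15. The labels do not say from where in the heart these cells came, and the association was noted after the values were seen.

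**Figure D2:**
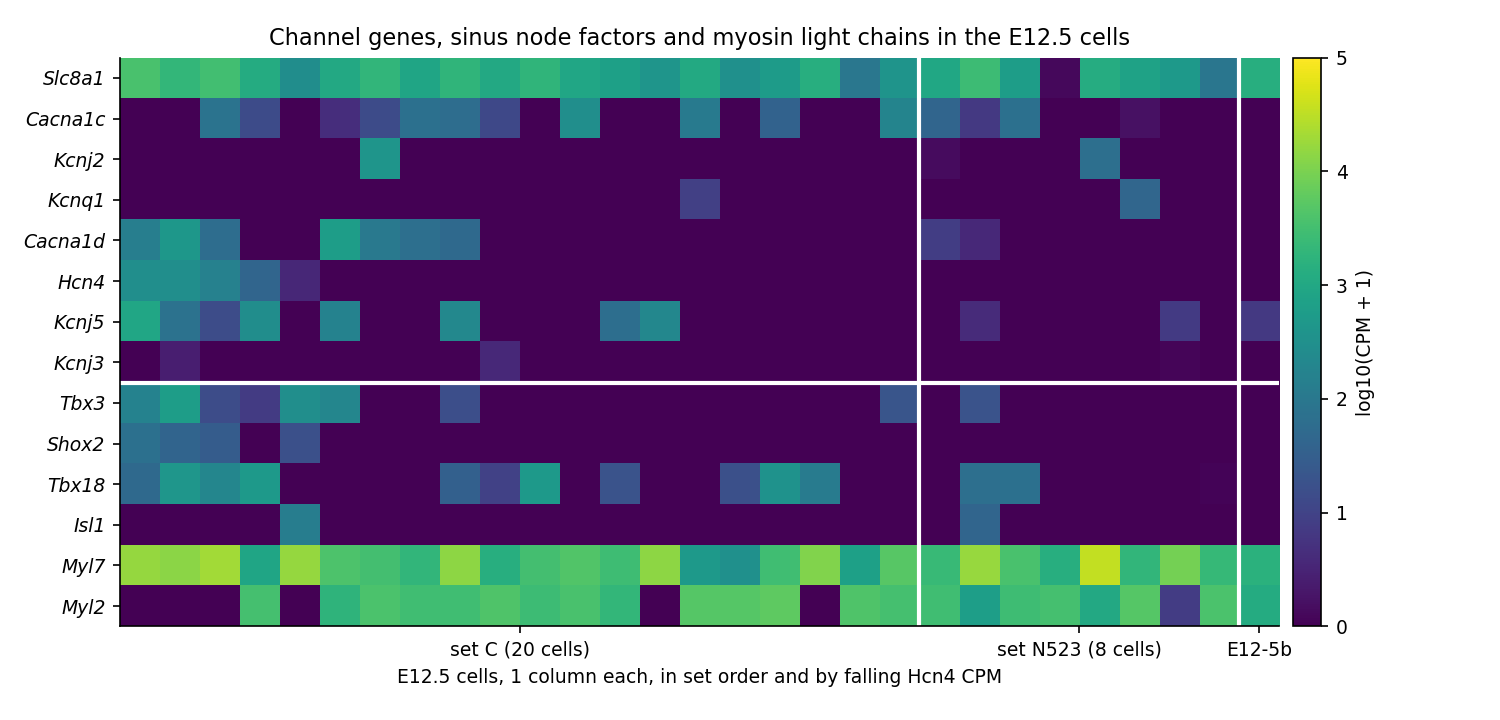
The 29 kept E12.5 cells, 1 column each, in the order of their naming set and of falling Hcn4, then Cacna1d; rows are the 8 genes, the sinus node factors and both myosin light chains, and colour is log10(CPM + 1). The 5 Hcn4 cells at the left of set C share Tbx3, 4 of them hold Shox2, and 4 are at 0 for Myl2.

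Kcnj2, the strong inward rectifier, was found mainly at P1. It was found in 0 of 42 E9.5 cells, which allows a share of up to 7.14% by the limit of 3 (exact interval to 8.41%), in 3 of 29 E12.5 cells (10.3%, interval 2.19 to 27.4) and in 11 of 41 P1 cells (26.8%, 14.2 to 42.9). The E12.5 cells held 405, 65.1 and 0.433 CPM. The 11 P1 cells ran from 7.90 through a median of 247 to 672 CPM. The E9.5 total of 101042067 counts, the deepest of the 3 days, held no count of it. E12.5 cells averaged 16.2 CPM and P1 cells 71.2 CPM.

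P1 was at least 268-fold above E9.5, whose 0 was set to the highest mean that 3 counts could give (all in the cell of the lowest total), and the log2 ratio was at least 6.48 within set C. P1 was 4.39-fold above E12.5 (log2 ratio 2.13, naming sets 1.81 to 3.12), and Kcnj2 was called higher in both. It was also called higher at E12.5 than at E9.5, where 7.95% of all genes were, but 86.1% of the E12.5 level came from 1 cell of set C. Without the highest cell the E12.5 mean was 2.34 CPM, set C was at 0 and the call was lost. Of the 11 P1 cells with Kcnj2, 7 held Cacna1c and 7 held Kcnj5, and 9 had more Myl2 than Myl7. Over all 41 P1 cells Cacna1c was found in 31 and Kcnj5 in 14. Of the 40 P1 cells at or above 5000 CPM of cardiomyocyte markers, 34 had at least as much Myl2 as Myl7.

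Kcnj5 and Kcnj3 encode the partner subunits of the acetylcholine-gated channel, and the 2 were far apart. Kcnj5 had counts in 29 of 42 E9.5 cells (69.05%, interval 52.9 to 82.4), in 11 of the 29 E12.5 cells (37.9%, 20.7 to 57.7) and in 14 of the 41 P1 cells (34.1%, 20.1 to 50.6), and the thinned shares were 51.7%, 28.97% and 31.1%. The highest cells held 930, 898 and 674 CPM, and the medians were 15.8 CPM at E9.5 and 0 at both later days. Means were 94.2, 66.8 and 44.3 CPM, of which 1 cell gave 46.3% at E12.5 and 37.1% at P1, and without the highest cell they were 73.9, 37.1 and 28.5 CPM. Between E9.5 and P1 the level was 2.13-fold lower at P1 (log2 ratio -1.09, naming sets -1.37 to -0.27), and Kcnj5 was called lower, close to the 2-fold limit. This call was lost in set C alone, with 3000 genes required and with TMM factors.

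Kcnj3 was barely found, with 10 counts in 1 E9.5 cell, 3 counts in 3 E12.5 cells and 15 counts in 2 P1 cells. Its mean was 0.533, 0.161 and 2.32 CPM. It was called higher in P1 than in E9.5 and E12.5 cells, but 1 P1 cell with 86.9 CPM gave 91.5% of that level, and the mean without it was 0.202 CPM. The pair was found together in 1 E9.5 cell, in 2 E12.5 cells and in no P1 cell, where 14 cells held Kcnj5 alone and 2 Kcnj3 alone.

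Kcnq1, the pore of the slow delayed rectifier, was found in 1 of 42 E9.5 cells with 1 count, in 2 of 29 E12.5 cells and in 12 of 41 P1 cells (29.3%, interval 16.1 to 45.5). The thinned shares were 0.0528%, 4.63% and 24.7%. The 2 E12.5 cells held 42.9 and 7.90 CPM, and the 12 P1 cells ran from 7.87 through a median of 32.4 to 92.9 CPM, with 2 to 11 counts each. Means were 0.00880 CPM for E9.5, 1.75 CPM for E12.5 and 10.8 CPM for P1, and P1 was called higher than both days. Without its highest cell the E12.5 mean was 0.282 CPM. P1 stood 6.16-fold above E12.5 (log2 ratio 2.62, naming sets 1.01 to 4.77). The ratio to E9.5 rests on 1 count at E9.5: pooled over cells its log2 value was 10.06, with a counting interval of 7.54 to 15.38, and within set C, where E9.5 had no count, the log2 ratio was at least 3.76.

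The antisense RNA Kcnq1ot1 had its lowest mean at P1, where Kcnq1 had its highest. It was found in 40 of 42, 24 of 29 and 32 of 41 cells, with means of 422, 306 and 147 CPM. Kcnq1ot1 was called lower at P1 than at E9.5 (2.88-fold), as 32.7% of all genes were. Against E12.5 it was also called lower at P1 (2.09-fold), as 20.1% were. At P1, 9 of the 12 Kcnq1 cells held Kcnq1ot1 and 3 did not, beside 32 of all 41 P1 cells that held it. A count of 0 at the depth of P1 cells does not show that the RNA was absent. At E9.5, 39 cells held Kcnq1ot1 without Kcnq1, which had only 1 count in 1 cell on that day.

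Of the 8 genes, 4 were called higher at P1 than at E9.5 (Cacna1c, Kcnj2, Kcnj3 and Kcnq1), where 18.6% of all genes were, and 3 lower (Cacna1d, Hcn4 and Kcnj5), where 32.7% were. The same 4 were called higher at P1 than at E12.5, as 20.1% of all genes were, and none lower, as 20.1% were. Between E12.5 and E9.5 only Kcnj2 was called higher and only Slc8a1 lower. The comparisons share their time points, so the lists are not independent. Calls for genes found in few cells, above all Kcnj3, rest on those cells.

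**Figure D3:**
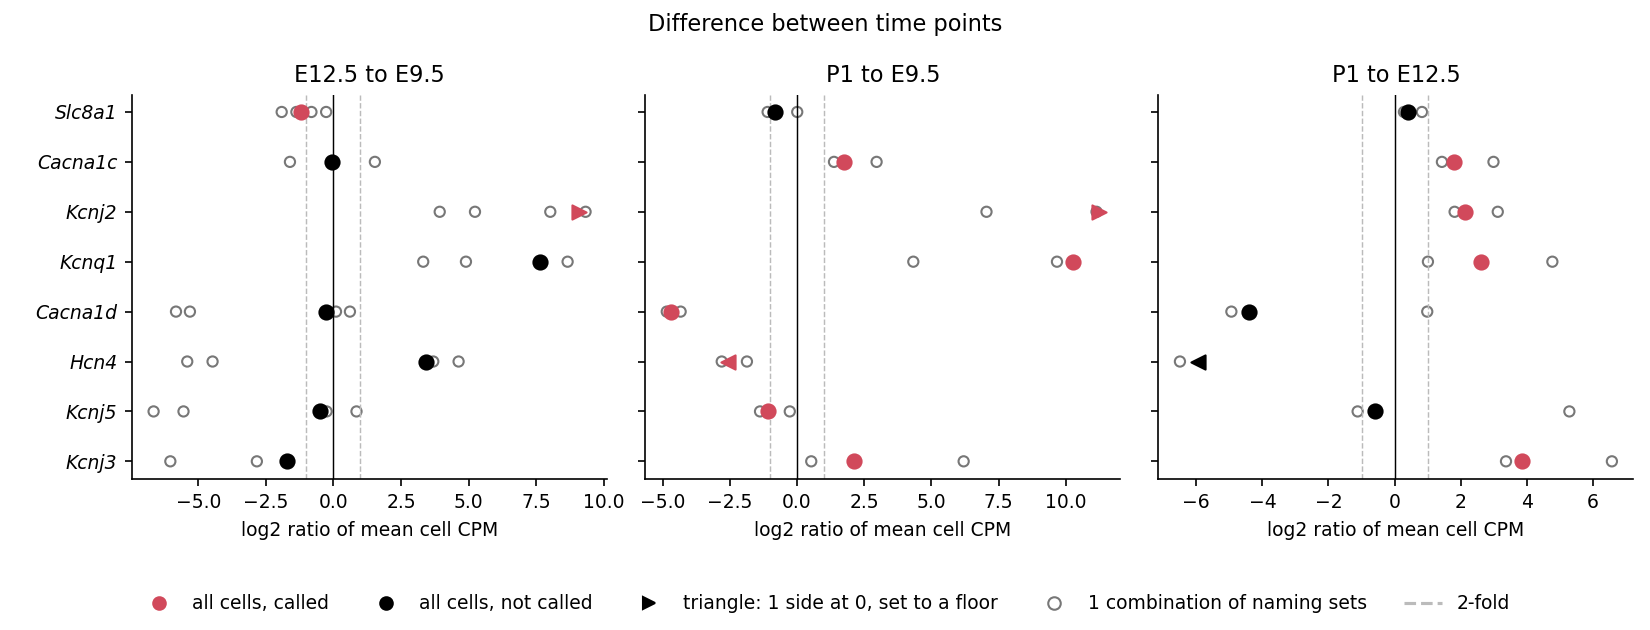
Log2 ratios of the mean cell CPM for the 3 comparisons (horizontal axes differ); filled symbols use all cells and are red where called, triangles mark ratios in which 1 time point had no count and was set to 3 counts of its summed total, open circles are single combinations of naming sets, and dashed lines mark 2-fold. Cacna1d lies at -4.69 and Kcnj2 is drawn at 11.2 for P1 to E9.5, while the circles of Cacna1d, Hcn4 and Kcnj5 for E12.5 to E9.5 lie on both sides of 0.

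The naming sets gave opposite answers for several genes between E9.5 and E12.5. Within set C, Cacna1c went from 14.98 to 43.3 CPM, Cacna1d from 47.9 to 73.1 CPM and Kcnj5 from 53.3 to 96.1 CPM. Between set N530 and set N523, the same genes went from 44.9 to 14.7 CPM, from 68.5 to 1.20 CPM and from 115 to 1.14 CPM. Set N523 held 4 cells with more Myl7 than Myl2 and 4 with at least as much Myl2, and set C of that day 12 and 8. Whether the set, its depth or its makeup plays a part in these differences was not tested.

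The share of cells with a pacemaker-type gene was highest at E9.5, and that with a working-muscle gene other than Slc8a1 was highest at P1, differences that were not tested. At least 1 of Hcn4, Cacna1d, Kcnj3 and Kcnj5 was found in 36 of 42 E9.5 cells (85.7%, interval 71.5 to 94.6), in 16 of the 29 E12.5 cells (55.2%, 35.7 to 73.6) and in 18 of the 41 P1 cells (43.9%, 28.5 to 60.3). The thinned shares were 73.8%, 39.8% and 38.6%. At E9.5 the thinned share was 59.7% for set C and 80.9% for set N530. At E12.5 it was 51.5% for set C but 11.9% for the cells of set N523. All P1 cells were of set C, and within that set the thinned shares were 59.7%, 51.5% and 38.6%. At least 1 of Cacna1c, Kcnj2 and Kcnq1 was found in 25 of 42 (59.5%), 16 of 29 (55.2%) and 36 of 41 cells (87.8%, 73.8 to 95.9), and the thinned shares were 39.6%, 45.8% and 84.4%. With Slc8a1 included the working-muscle share was 92.9%, 100% and 97.6%.

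**Figure D4:**
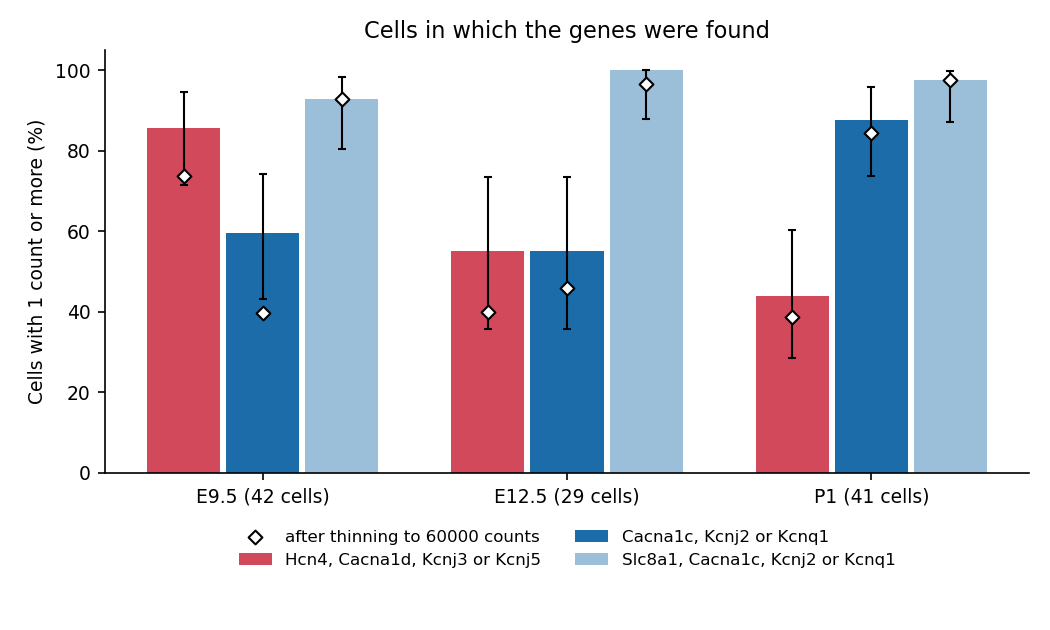
Percentage of kept cells with 1 count or more of any gene of 3 lists at each time point; bars are shares, error bars exact 95% binomial intervals, and diamonds the expected share after thinning each cell to 60000 counts. The pacemaker-type share is 85.7% at E9.5 and 43.9% at P1, and the share for Cacna1c, Kcnj2 or Kcnq1 is 59.5% at E9.5 and 87.8% at P1.

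By level, the pacemaker-type genes summed to 159 CPM in E9.5 cells, 145 CPM in E12.5 cells and 48.99 CPM in P1 cells, and the working-muscle genes to 2672, 1187 and 1706 CPM. The log2 ratio of the first to the second was -4.07, -3.03 and -5.12. The E12.5 value combined -2.64 in set C and -8.54 in set N523, whereas at E9.5 the sets gave -3.86 and -4.13. Slc8a1 made up most of the working-muscle sum. Without it the ratios were 2.18, 1.48 and -2.02, so the sign differed between both embryonic days and P1. With Hcn4 and Cacna1d set against Kcnj2 and Cacna1c alone the ratios were 0.88, 0.64 and -6.30. In set N523 these ratios were below 0 as well, at -3.58 and -4.25.

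Cells were not split into one kind or the other. At E9.5, 24 cells held both a pacemaker-type gene and one of Cacna1c, Kcnj2 and Kcnq1, 12 held the first kind alone, 1 the second alone and 5 neither. At E12.5 the numbers were 9, 7, 7 and 6, and at P1 16, 2, 20 and 3. Over cells the Spearman correlation of the summed CPM of both kinds, Slc8a1 left out, was 0.13 over 42 E9.5 cells, -0.06 over 29 E12.5 cells and 0.20 over 41 P1 cells. The cells of each correlation shared a time point but differed in depth. Of the 8 genes, an E9.5 cell held 0 to 6 with a median of 3, an E12.5 cell 1 to 5 with a median of 2, and a P1 cell 0 to 4 with a median of 3.

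The atrial light chain Myl7 and the ventricular light chain Myl2 offered a second view of the cells, chosen after the values were seen. Among cells at or above 5000 CPM of cardiomyocyte markers, Myl7 exceeded Myl2 in all 38 E9.5 cells, in 17 of the 29 E12.5 cells and in 6 of the 40 P1 cells. In those 38 E9.5 cells the atrial marker Sln was found in 0 and the ventricular marker Irx4 in 17. More Myl7 at E9.5 is therefore not read as atrial identity. At E12.5, 11 of the 29 lay within 2-fold of equality, so this is a range and not a division into types. Kcnj5 was found in 10 of the 17 E12.5 cells with more Myl7 and in 1 of the other 12, and at P1 in 4 of 6 and 10 of 34. The mean P1 level was 165 CPM in the 6 and 24.3 CPM in the 34, with the 4 cells at 674, 254, 46.96 and 15.8 CPM and the highest of the 34 at 171 CPM. All 6 held Sln, an atrial gene, at a mean of 3969 CPM against 2.73 CPM in the 34. Kcnq1 was found in 1 of the 6 and 11 of the 34, Kcnj2 in 2 and 9, and Cacna1c in 3 and 28. Slc8a1 was found in every cell of both, at means of 1721 and 1514 CPM.

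For each gene, the most similar genes were sought by the Pearson correlation of ln(counts per 10000 + 1) over all 112 kept cells, among 9052 genes found in 10% or more of them. Slc8a1 followed Ttn (0.62), Nexn (0.55) and Myh6 (0.54), all sarcomere genes, and the correlation with Ttn was 0.81, 0.53 and 0.43 within E9.5, E12.5 and P1. These values include the cells with few cardiomyocyte markers, most of them without Slc8a1, and Ttn and Myh6 are among those markers. Cacna1d followed Tbx3 (0.63), Akap5 (0.49) and Rab24 (0.48), and the Tbx3 value was 0.48 within E9.5 and 0.73 within E12.5. Hcn4 followed Bmp4 (0.77), Slc24a2 (0.62) and Ociad2 (0.62), with Bmp4 at 0.94 within E12.5 and -0.05 within E9.5. The neighbours of Hcn4 were found in the same cell as Hcn4 in 7, 5 and 8 cells. These values are descriptions over cells of 3 time points that differ in depth.

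Cacna1c was nearest to Acot1 (0.46), Guf1 (0.43) and Gja1 (0.43), the last being the main gap junction gene of working muscle, which shared 57 cells with it. Gja1 was itself found in 83 of the 112 cells, and its correlation was 0.27 within E9.5, 0.37 within E12.5 and 0.24 within P1. Acot1 was at -0.01 within E9.5, -0.11 within E12.5 and 0.46 within P1. Kcnj5 was nearest to Tapbpl (0.48), Ranbp10 (0.43) and Gnal (0.43), the last pair at -0.08 and -0.13 within P1. Kcnq1 was nearest to Neat1 (0.61), Park2 (0.53) and Fam73a (0.53), with Neat1 at -0.03 within E9.5, -0.06 within E12.5 and 0.58 within P1. Kcnj2 was nearest to Hint3 (0.57), Acss1 (0.49) and BC065397 (0.48), which were found together with it in 10, 4 and 6 cells. Their values were -0.10, -0.06 and 0.82 within E12.5 and 0.65, 0.49 and 0.45 within P1. For Kcnj3 the values for Ezh1 (0.79), Frmpd1 (0.71) and Lrwd1 (0.68) came from 2, 2 and 3 cells that held both genes.

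A wider list of 83 channel, pump and transporter genes was read the same way, and 52 of them were found in 3 or more kept cells. At P1 against E9.5, 16 of the 52 (30.8%) were called higher and 14 (26.9%) lower, beside 18.6% and 32.7% of all genes. At P1 against E12.5 the numbers were 18 (34.6%) and 7 (13.5%), beside 20.1% and 20.1%. For E12.5 against E9.5 they were 4 (7.69%) and 10 (19.2%), beside 7.95% and 17.7%, and 2 were higher when the highest cell was left out. Of these genes, 23 picked by their level or call are given, and Hcn2, Slc8a2 and Slc8a3 are added as relatives of members. Levels are means over all cells of a time point, in the order E9.5, E12.5 and P1. Many rest on few cells: when the highest cell of each time point was left out, a choice made after seeing the data, 17 of the 23 had a level more than 1.5 times lower on at least 1 day.

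Voltage-gated potassium channels were called higher at P1 than at E9.5 in 5 of 7 cases, beside 18.6% of all genes. Of these 5, Kcnd3 was found in 1 P1 cell, and 4 were left when the highest cell was left out. Kcne1, the accessory subunit that joins Kcnq1 in the slow delayed rectifier, had means of 7.17, 97.2 and 273 CPM, with counts in 6, 17 and 30 cells, and was called higher at each step. Kcnd2, a transient outward channel, was not found on E9.5. It was found in 2 E12.5 and 4 P1 cells, where the mean over all cells was 4.52 and 47.5 CPM, and 0.290 and 13.0 CPM without the highest cell. Kcna5, the ultrarapid channel known from atria, went the other way, with means of 21.9, 1.58 and 0 CPM and counts in 15, 2 and 0 cells.

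Among inward rectifier and leak potassium channels, 5 of 9 were called higher at P1 than at E9.5 and 1 lower, beside 18.6% and 32.7% of all genes. Of these 5, Kcnj12 and Kcnn1 were each found in 1 P1 cell, and 3 were left when the highest cell was left out. Kcnj11, a pore of the ATP-sensitive channel, was at 14.4, 18.1 and 30.1 CPM, and at 6.02, 4.69 and 15.8 CPM without the highest cell. Abcc9, a sulfonylurea receptor, was at 77.5, 62.2 and 200 CPM, and Abcc8 at 6.99, 5.94 and 72.6 CPM. These 3 were called higher at P1 than at E9.5, whereas Kcnj8, the other pore gene, was found in 1 E12.5 cell only. The leak channel gene Kcnk3 stood at 114, 14.7 and 88.8 CPM (71.9, 4.86 and 60.3 CPM without the highest cell) and was called higher at P1 than at E12.5.

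The other calcium channel genes were split between P1 and E9.5, with 3 of 8 called higher at P1 and 3 lower. Of all genes, 18.6% and 32.7% were. At P1 against E12.5, 5 were called higher and 1 lower, beside 20.1% and 20.1% of all genes. At E12.5 against E9.5, 0 were higher and 3 lower, beside 7.95% and 17.7%. Cacna2d2, an auxiliary subunit, had means of 101, 40.7 and 0 CPM and counts in 32, 13 and 0 cells, while its relative Cacna2d1 went from 26.6 to 47.6 and 90.7 CPM, with 73.7% of the E9.5 level in 1 cell. The T-type channel Cacna1h was at 31.6, 7.81 and 5.81 CPM and was called lower at both later days. Cacnb2, the main cardiac beta subunit, was at 28.2, 15.8 and 37.9 CPM. The sodium channel beta subunit Scn2b was at 39.7, 37.6 and 0 CPM, with 72.6% of the E12.5 level in 1 cell. Of the relatives of Hcn4, Hcn3 was found in 1 E12.5 cell at a mean of 2.33 CPM and Hcn2 in no kept cell.

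Of the pumps and exchangers, 3 of 14 were called higher at P1 than at E9.5 and 4 lower (21.4% and 28.6%), beside 18.6% and 32.7% of all genes. Fxyd1, the phospholemman that regulates the sodium pump and the exchanger encoded by Slc8a1, had means of 48.5, 293 and 375 CPM and counts in 23, 29 and 40 cells. The sodium pump beta subunit Atp1b1 was at 117, 425 and 302 CPM, whereas Atp1b3 was at 104, 35.7 and 19.3 CPM and Atp1b2 at 71.5, 103 and 27.7 CPM. The calcium pumps Atp2b1 and Atp2b4 were called lower at P1 than at E9.5, with Atp2b1 at 223, 150 and 77.9 CPM and Atp2b4 at 44.8, 38.7 and 12.2 CPM. The other members of the exchanger family, Slc8a2 and Slc8a3, were found in 2 cells and 1 cell of E9.5 and in none later. Of the chloride and cation channels, Trpm7 was at 196, 147 and 318 CPM, Clcn3 at 93.6, 120 and 55.7 CPM and Pkd2 at 30.1, 1.96 and 1.14 CPM. For Clcn3, 1 E9.5 cell gave 58.5% of that day's level. Its means without the highest cell were 39.8, 90.7 and 46.6 CPM, so E9.5 then lay below P1. Trpm4 was at 5.38, 77.2 and 3.67 CPM, but 1 E12.5 cell at 2128 CPM gave most of that day's level, and the mean without the highest cell was 0.787, 3.99 and 1.49 CPM.

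**Figure D5:**
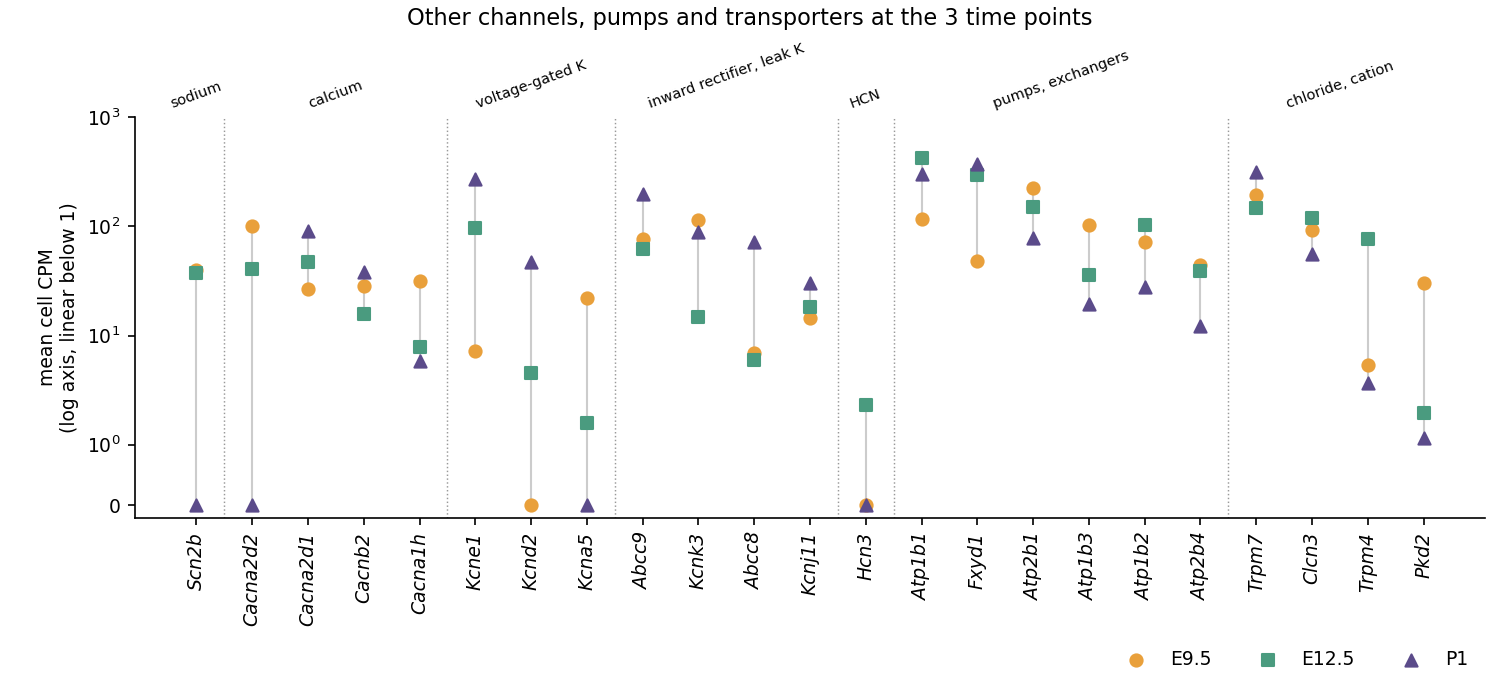
Mean cell CPM of the 23 named channel, pump and transporter genes at E9.5 (circles), E12.5 (squares) and P1 (triangles) on a log axis that is linear below 1, grouped by kind, with lines joining the lowest and highest level. Kcne1 and Fxyd1 have their own highest level at P1, at 273 and 375 CPM, while Cacna2d2, Scn2b and Kcna5 are at 0 there.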

How the data were processed

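Single cardiac cells were sorted for GFP, captured on the Fluidigm C1 system and sequenced as single reads of 75 bases. The authors aligned the reads with OLego and counted them per gene with featureCounts on GRCm38/mm10, per the study's methods and the submitters' processing notes, and deposited raw counts. They also deposited TPM on a linear scale, made with a script of their own, which were used here only where genes are compared per length and as an alternative scaling. The strand setting of the counting is not given in the sources used here.

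A cell was kept if at least 2000 genes had a count. The highest correlation of ln(CPM + 1) between any 2 kept cells was 0.69, so no cell appeared to be deposited more than once. A time point's level is the mean of its cells' CPM, and a gene was called at a 2-fold difference with 1 direction across all pairings of naming sets that held 6 or more cells. This is a rule of size, not a test, and no p-value is given because each time point is 1 sample. Shares have exact Clopper-Pearson 95% intervals, summed counts exact Poisson intervals, and a count of 0 a floor of 3 counts. In the calls that floor is 3 counts of the summed total, and printed bounds place all 3 in the cell of the lowest total. Intervals and floors cover counting error only. Thinned shares are expected values for 60000 counts drawn from each cell without replacement. Other channels were named if they had the 2 highest levels of their list or were called at 20 CPM or more, and some of these are not reported here. For each member the 3 most correlated genes were named. Older symbols were matched through RefSeq synonyms for 5 listed genes, and 1 was not matched. The 8 genes, the lists and the markers were chosen with earlier results of these data known. The calling code was tested on simulated data. Alternatives covered the gene minimum, cells whose titles end in "no", cells with few cardiomyocyte markers, set C alone, pooled counts, TPM, TMM factors from edgeR 4.0.16, the highest cell left out, the counts for a gene to be found and the fold. Python 3.11.15, pandas 2.3.3, scipy 1.17.1 and R 4.3.3 were used.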

Additional observations from a re-analysis of the deposited data

Results flagged for a closer look

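For 4 of the 8 genes the ratio of E12.5 to E9.5 had opposite signs in the naming sets, a difference that was not tested. The log2 ratio within set C and between sets N523 and N530 was 1.53 and -1.61 for Cacna1c, 0.61 and -5.83 for Cacna1d, and 0.85 and -6.66 for Kcnj5. For Hcn4 it was 4.63 within set C and -5.41 between the N sets, with the 0 of set N523 set to 3 counts of its summed total. With the highest mean that 3 counts could give there it was at most -4.59.

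The 11 P1 cells with fewer than 2000 genes entered no comparison of the report, only the alternative with a minimum of 1000 genes, and their totals ran from 4903 to 149120 counts. Slc8a1 was found in 11 of them, with 1088 counts, and Cacna1c in 6, with 24 counts. Cacna1d was found in 1 cell (5 counts), Kcnj5 in 1 (8 counts), and Kcnj2 and Kcnq1 in 1 each (2 counts), while Hcn4 and Kcnj3 were not found.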

How the results depend on the processing

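No paired analysis was possible because each time point is 1 sample, the replicate numbers only name cells in accession order, and no test was run. The members called at P1 numbered 4 higher and 3 lower than E9.5, and 4 higher than E12.5, and the counts stayed within 1.5 times of these under the alternatives run. Among the genes, Kcnj3 was lost from those higher than E9.5 with set C alone (log2 ratio 0.53), and from the higher ones with 3000 genes required, without each gene's highest cell and with the rule, chosen after seeing the data, that a gene be found in 10% or more of the cells of the higher time point. Of those lower than E9.5, Kcnj5 was lost with 3000 genes required, with set C alone and with TMM factors, and Hcn4 without its highest cell. Slc8a1 was added to the genes lower at P1 than at E9.5 by TPM, and to those higher than at E12.5 by pooled counts. Higher at E12.5 than at E9.5 was 1 gene (Kcnj2), against 3 in set C alone (Cacna1c, Hcn4 and Kcnj2), 2 by TPM (Kcnj2 and Kcnq1) and 0 without each gene's highest cell. Lower at E12.5 was 1 gene (Slc8a1), against 2 without cells whose titles end in "no" (Slc8a1 and Cacna1d) and 0 with a 4-fold limit. In set C alone the 1 gene lower at E12.5 was Kcnj3, and Slc8a1 was lost (log2 ratio -0.27). Lower at P1 than at E12.5 was 0 genes, against 3 in set C alone (Cacna1d, Hcn4 and Kcnj5) and 1 without each gene's highest cell (Cacna1d).

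The pacemaker-type to working-muscle log2 ratio at E9.5 (-4.07) moved to -3.86 with set C alone and -2.42 by TPM (-1.23 for E12.5 and -3.31 for P1). The E12.5 value lay above the E9.5 one with all cells, but below it by pooled CPM (-4.54 against -4.05) and without cells whose titles end in "no" (-4.50 against -4.07). The E9.5 value changed sign to 2.18 without Slc8a1 and 0.88 for Hcn4 and Cacna1d against Kcnj2 and Cacna1c, as did the E12.5 value (-3.03), to 1.48 and 0.64. At P1 (-5.12) it was -2.02 without Slc8a1. The share of E9.5 cells with a pacemaker-type gene was 64.3% within set C, and that of P1 cells was 26.8% with 10 counts required. For working-muscle genes the E9.5 share was 78.6% within set C and 100% without the cells with few cardiomyocyte markers, and at P1 it was 100% without those cells, without titles ending in "no" and with 3000 genes required. Without titles ending in "no" the E12.5 to E9.5 log2 ratio was -2.11 for Cacna1d (-0.28 with all cells) and -1.68 for Kcnj5 (-0.50), while between P1 and E12.5 Cacna1d stood at -2.50 (-4.41), Kcnj5 at 0.60 (-0.59) and Kcnj2 at 1.42 (2.13). With a time point at 0 set to the highest mean 3 counts could give, a choice made after seeing the data, the calls of members were the same. Of 212 alternative log2 ratios of single genes, 189 moved by less than the spread between naming sets, which reached several log2 units, and 8 had the opposite sign, none of them a called ratio. Kcnj5 from E12.5 to P1 went from -0.59 to 1.62 with pooled CPM, for example, and Kcnj3 from E9.5 to E12.5 from -1.73 to 1.18 without its highest cell. The cause of these changes was not tested. Depth limits the rare genes most: 1 count was 6.71 CPM in a median P1 cell.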
